A study of Mus musculus with 6 samples.

Results

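Alveolar duct myofibroblasts were sought among the single cells of mouse lung by a rule on raw UMIs (unique molecular identifiers, each standing for 1 captured transcript) of a few marker genes. A cell barcode was a member when it had at least 500 genes, at most 15% of its UMIs from mitochondrial genes, and at least 2 UMIs summed over Aspn, Lgr6 and Fgf18. It could hold at most 2 UMIs of Myh11, Actg2 and Des (smooth muscle), at most 2 of Pi16, Dpt, Clec3b, Mfap5 and Scara5 (adventitial fibroblasts) and at most 1 of Cdh5, Pecam1 and Cldn5 (endothelium). It could hold no Ptprc (blood cells) or Epcam (epithelium) and at most 1 UMI of Trap1a and Trnp1, which were used as leukaemia genes. Of 28516 deposited barcodes, 24640 kept the limits on genes and mitochondrial UMIs, 2452 kept all limits of exclusion, and 109 were members. The Control libraries held 5, 7 and 9 members and the AML libraries 22, 25 and 41.

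Control libraries were made from normal mouse lungs, and AML libraries from lungs infiltrated by acute myeloid leukaemia of the genotype Trp53 R172H/Δ. All lungs were digested with Liberase and DNaseI and sorted for niche cells, meaning cells outside the blood lineage. Sorted GFP+ leukaemia cells were then put back into the AML suspensions, at 20% of cells against 80% from the niche, so that an AML library is itself a mixture. The labels give neither age, sex nor strain, and do not say whether each library came from an animal of its own. The p-values below therefore reflect the spread among libraries alone, and that spread may be technical. The 6 libraries held 2234 to 6722 barcodes and 19060359 to 46018541 UMIs each. Libraries of 1 group differed by far more than counting noise (chi-square per degree of freedom 25.1 to 89.6). Of the barcode sequences, 125 occurred in more than 1 library, but no 2 members shared one.

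Myofibroblasts of the alveolar duct lie in the free edges of the septa that open into the duct, where they hold contractile proteins beside a ring of elastic fibres. Hhip, Aspn and Lgr6 are among their markers in mouse lung atlases, and Lgr6 is not confined to them. Hhip binds hedgehog ligands and holds them from their receptor, Aspn encodes asporin, a small leucine-rich protein of the matrix, Lgr6 is a receptor for R-spondins, and Fgf18 is a growth factor of the developing septum.

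The rule gathered more than 1 kind of cell. Of the 109 members, 85 held Aspn (3, 7 and 5 in Control 1, 2 and 3, and 14, 18 and 38 in AML 1, 2 and 3), and 24 were admitted by Fgf18 or Lgr6 alone. Hhip, which the rule did not use, was found in 74 of the 85 barcodes with Aspn (87.1%) and in 7 of the 24 without it (29.2%). Of mesothelium, the cell layer that covers the lung, 10 marker genes gave 0 UMIs in all 85 barcodes with Aspn. Of the 24 without Aspn, 17 held 33 to 241 UMIs of those genes (median 77). Msln, the mesothelial surface protein mesothelin, stood at 2330 CPM (UMIs of a gene per 1000000 UMIs of the summed barcodes) in the 24. These barcodes were also larger, with a median of 8319.5 UMIs against 2540. They supplied 201684 of the members' UMIs, against 229994 from the barcodes with Aspn. Of the 7 remaining barcodes without Aspn, 3 held Hhip, 1 held 71 UMIs of Ager, the marker of alveolar type 1 cells, and 1 held 115 UMIs of Cytl1, the only Cytl1 in any member. The data thus go against the label for most members without Aspn. The description below turns on the 85 with Aspn, called Aspn-positive barcodes, with the whole set beside them.

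**Figure D1:**
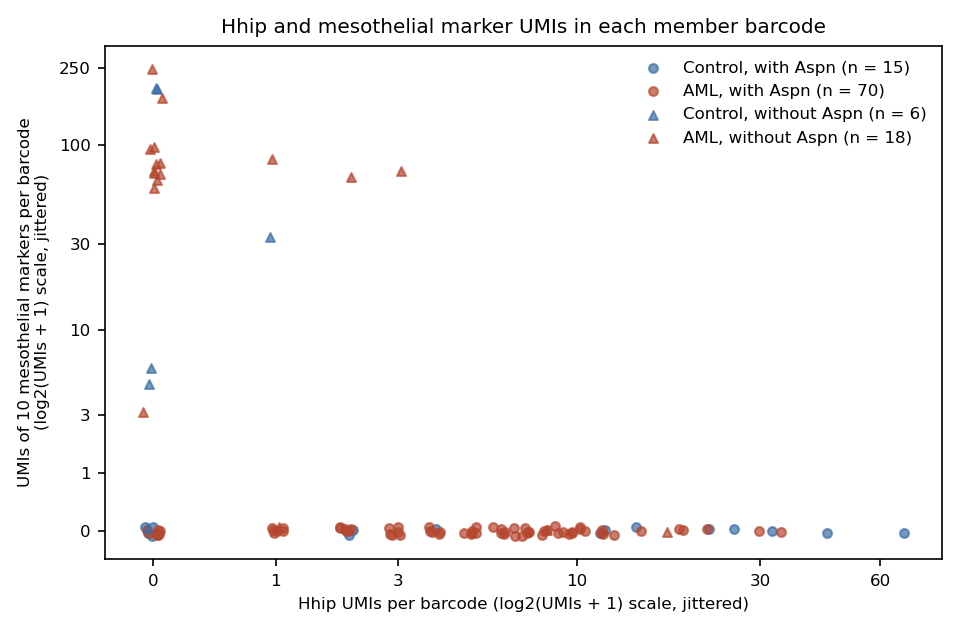
Each point is 1 of the 109 member barcodes, with its Hhip UMIs on the x axis and its summed UMIs of 10 mesothelial markers on the y axis, both on a log2(UMIs + 1) scale with small jitter. Points with Aspn lie along the x axis at 0 mesothelial UMIs, and 17 of the points without Aspn lie at 33 UMIs or above.

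The share of barcodes with Hhip was far above that in cells that should lack it. In barcodes of blood and leukaemia cells Hhip was found in 0.832% (31 of 3728) at a median of 19565 UMIs, against 2540 in the Aspn-positive barcodes. After each barcode was thinned to 2000 UMIs, Hhip was found in 86.2% of the 65 Aspn-positive barcodes that reached this depth (20 did not) and in 0.223% of blood barcodes (144 did not). The unthinned share was 12.5% of 407 Pdgfra-positive alveolar fibroblasts, 4.05% of 173 smooth muscle barcodes and 20.8% of 385 adventitial fibroblasts. These 3 comparison classes were rebuilt from marker genes under the same limits of exclusion, since no cell annotation by the authors was used here.

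Around the threshold of 2 UMIs, barcodes just outside and just inside did not part by Hhip. Of 59 barcodes with exactly 1 UMI of Aspn, Lgr6 and Fgf18, 36 held Hhip, at 1131 CPM. Of 43 with exactly 2, 25 held it, at 717 CPM, and 9 of the 43 held 10 or more mesothelial UMIs. Of 66 with 3 or more, 56 held it, at 2376 CPM. Among barcodes with Aspn, Hhip stood at 1239, 1907 and 3451 CPM at the same 3 steps.

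Aspn itself carried most of the rule. In the 85 barcodes Aspn was the only rule gene in 48, Lgr6 was present in 22, Fgf18 in 21, and both in 6. Lgr6 was also found in 22 of 173 smooth muscle barcodes (12.7%), although the rule of that class limited Aspn, Lgr6 and Fgf18. In the order of replicates 1, 2 and 3, used throughout, Aspn stood at 1383, 1685 and 2223 CPM for the Controls, against 1550, 946 and 1945 CPM for the AML libraries. Lgr6 stood at 0, 42.1 and 191 CPM in the Controls, against 23.9, 144 and 146 CPM in AML, and Fgf18 at 0, 84.3 and 254 against 191, 61.7 and 83.7 CPM. These values chose the members and are given as a description. Of other mesenchymal receptors, Pdgfra, a platelet-derived growth factor receptor of fibroblasts, was seen in 5 of the 85, and Pdgfrb, its partner on pericytes, in 8. Unthinned, Pdgfra was found in 71.5% of all alveolar fibroblasts (407 of 569) and in 83.1% of adventitial fibroblasts (320 of 385).

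Control 1 stood apart and bears on every comparison below. Its 3 Aspn-positive barcodes held 4337 UMIs in all, so that 3 UMIs there equal 692 CPM, against 31.4 to 191 CPM in the other libraries. Only 1 of the 3 held Hhip. Markers of alveolar type 2 cells summed to 38967 CPM in Control 1 and to 126 to 387 CPM elsewhere, with 44 and 72 UMIs of the surfactant gene Sftpc in 2 of its barcodes. Myeloid markers summed to 6917 CPM against 0 to 103 CPM, and endothelial markers to 3459 CPM against 0 to 191 CPM. Their part in the results was not tested. Levels are printed by library, so those of Control 2 and 3 can be read alone, and the fits and shares below are also given without Control 1.

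A few other Aspn-positive barcodes also lacked Hhip, 11 in all (2 in Control 1, 2 in Control 2, 5 in AML 2 and 2 in AML 3). Of these, 2 of Control 2 and 1 of AML 2 held 7, 27 and 63 UMIs of pericyte markers and all 22 UMIs of Postn, the matrix protein periostin. The 74 barcodes with Hhip held 0 UMIs of Postn. Lgr6 was in 0 of the 11 and in 22 of the 74. Pericyte markers summed to 461, 1432 and 0 CPM in the Controls and to 23.9, 1419 and 73.2 CPM in the AML libraries, so they did not part the groups.

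The genes of the Aspn-positive barcodes were ranked by their ratio to the highest of the comparison classes. Hhip led at 3039 CPM over all 6 libraries, 20.5 times the next class. Cyp2e1, a cytochrome P450, followed at 552 CPM and 18.7 times, and Cdh4, a cadherin, at 196 CPM and 18.5 times. Kcnj8, a subunit of potassium channels gated by ATP, was at 422 CPM (9.88 times), Cntfr, the binding receptor for ciliary neurotrophic factor, at 265 CPM (9.49 times) and Rgs2, which shortens signals from G protein-coupled receptors, at 2170 CPM (8.29 times). Secreted products among the 20 leading genes included Enpp2, the enzyme that makes lysophosphatidic acid (1626 CPM, 4.43 times), Igfbp3, which binds insulin-like growth factors (1696 CPM, 3.86 times), Wnt5a, a Wnt ligand (283 CPM, 3.81 times), and Tgfbi, a matrix protein (504 CPM, 5.31 times). These ratios are a description, since the barcodes were chosen by their own expression. Pericytes were not a comparison class, so the ratios do not place these genes against pericytes.

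The leading genes were spread over barcodes and libraries. Enpp2 was found in 73 of 85 barcodes, at 0, 2022 and 1905 CPM in the Controls and 1431, 1584 and 1663 CPM in the AML libraries. Rgs2 was found in 72, at 0, 3076 and 4954 CPM in the Controls and 2695, 1296 and 1799 CPM in the AML libraries. Igfbp3 was found in 58, at 0, 1222 and 1334 CPM against 1288, 2551 and 1694 CPM. All 3 were at 0 in Control 1 and present in each other library. Hhip varied widely, from 461, 6909 and 4763 CPM in the Controls to 3602, 761 and 2823 CPM in the AML libraries, and the groups overlapped. In AML 2, the lowest apart from Control 1, Hhip was in 13 of 18 barcodes.

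Acta2 and the summed contractile genes were present at a level well under that of smooth muscle. Mustn1, a small nuclear protein of muscle and skeleton, was found in 57 of the 85 barcodes, at 231, 1348 and 1715 CPM in the Controls and 1455, 617 and 701 CPM in the AML libraries. Tagln, the actin-binding transgelin, was found in 45, at 0, 632 and 635 against 549, 555 and 1464 CPM. Acta2, smooth muscle actin, was found in 30, at 0, 295 and 254 against 477, 226 and 418 CPM. In the smooth muscle barcodes Acta2 ranged from 8665 to 22733 CPM over the 6 libraries, and in Pdgfra-positive alveolar fibroblasts from 0 to 24.4 CPM. The 25 genes of the contractile apparatus summed to 3228, 6657 and 4954 CPM in the Controls and 5534, 3929 and 6588 CPM in the AML libraries, against 44272 to 82687 CPM in smooth muscle. Mustn1 was less clearly apart from smooth muscle by its share of barcodes. With barcodes thinned as for Hhip above, Mustn1 was found in 61.5% of Aspn-positive and 77.3% of smooth muscle barcodes. In the Controls these shares were 81.8% (9 of 11) and 73.5% (25 of 34), and in AML 57.4% and 78.4%. Myh11, Actg2 and Des were limited by the rule, so a low contractile level is partly set by it.

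Matrix and signalling genes gave few UMIs. Eln, the elastin of the fibre ring, stood at 692, 632 and 0 CPM in the Controls and 382, 453 and 261 CPM in the AML libraries. Col1a1, a chain of collagen I, stood at 0, 253 and 63.5 against 95.4, 103 and 157 CPM. On the hedgehog side, 11 of 17 listed genes had any UMI and 1 (Hhip) had enough for a test. Ptch1, the hedgehog receptor that the pathway also induces, had 22 UMIs in all, and the transcription factor gene Gli1 had 2.

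**Figure D2:**
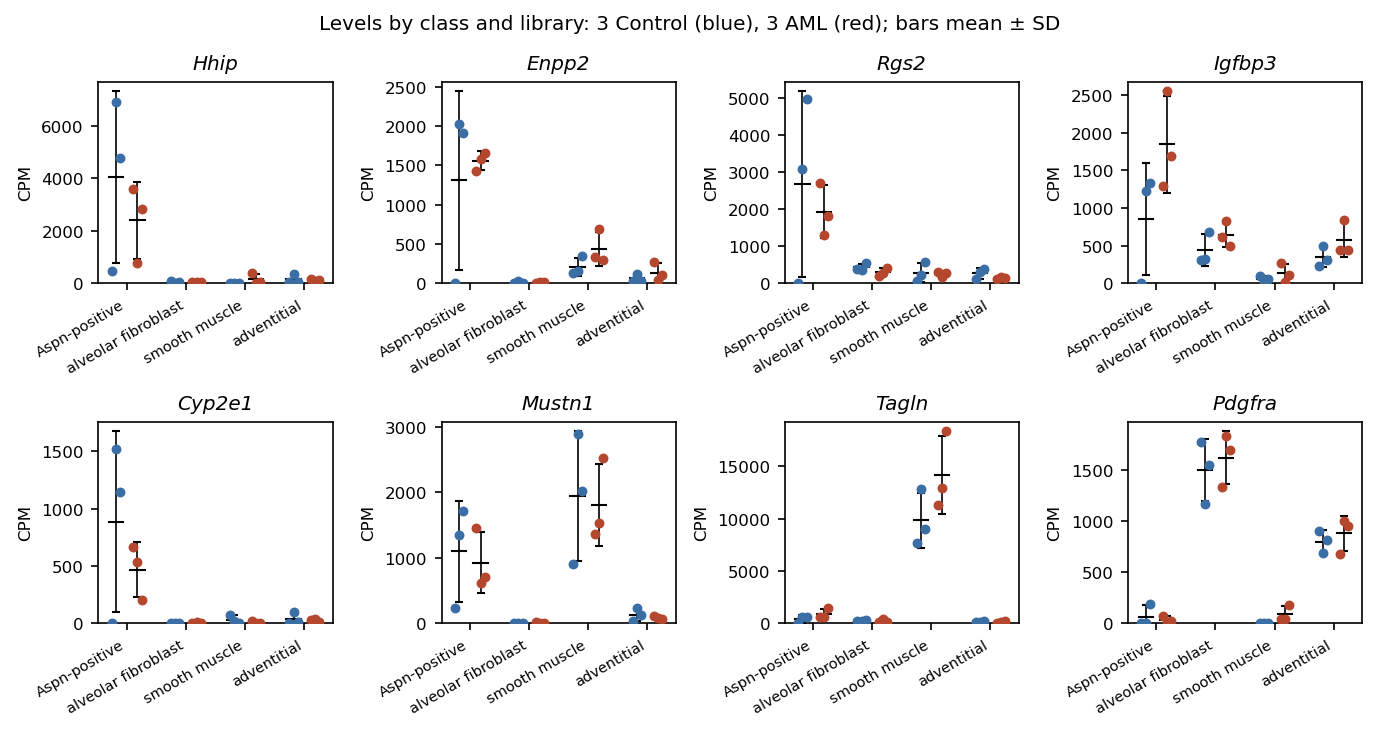
Levels in CPM (y axis, linear) of 8 genes in Aspn-positive barcodes, Pdgfra-positive alveolar fibroblasts, smooth muscle and adventitial fibroblasts (x axis), with 1 point per library, Controls in blue and AML in red, a line at the mean and bars of 1 SD cut at 0. Hhip, Enpp2, Rgs2, Igfbp3 and Cyp2e1 stand highest in the Aspn-positive barcodes except in Control 1. Mustn1 and Tagln stand highest on average in smooth muscle. Pdgfra stands highest in the alveolar fibroblasts, which were chosen for holding it, so this level was set by the choice.

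The share of members among mesenchymal cells did not differ between the groups beyond the spread of the libraries. Among barcodes within the limits of exclusion and with at least 2 UMIs of Col1a2, Pdgfra, Pdgfrb and Acta2, members made up 1.92, 2.67 and 1.85% in the Controls against 3.60, 2.13 and 4.35% in the AML libraries. The means were 2.15% ± 0.46 and 3.36% ± 1.13 (SD, n = 3 each), a difference of 1.21 percentage points (two-sided exact permutation test over libraries, p = 0.2; 3 against 3 cannot go below 0.1). AML 2 lay within the range of the Controls. Of the 109 members, 68 held any UMI of those 4 genes and 45 held the 2 required, so this share leaves out most of them. Without Control 1 the difference was 1.10 percentage points (exact permutation p = 0.4). With every barcode thinned to 2000 UMIs the sign turned, at 4.03% for Control and 2.69% for AML (exact permutation p = 0.4). As a share of all barcodes within the limits, members made up 3.09% ± 0.49 of Control and 5.03% ± 1.26 of AML barcodes (exact permutation p = 0.1, the smallest possible). That count includes the 24 members without Aspn, 17 of them with mesothelial markers. Aspn-positive barcodes were 3 of 165, 7 of 266 and 5 of 250 in the Controls. In the AML libraries they were 14 of 410, 18 of 687 and 38 of 674, and this share was not tested. Among the mesenchymal barcodes, Aspn-positive ones made up 1.51% ± 1.37 in Control and 2.59% ± 1.55 in AML (exact permutation p = 0.5).

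The comparison of AML with Control asks how these cells of the niche differ when leukaemia occupies the lung. Mt1 was higher in the Aspn-positive barcodes of AML lungs. Mt1 encodes metallothionein 1, a small protein that binds zinc and copper and whose gene responds to metals, glucocorticoids and oxidative stress (ENSMUSG00000031765, chromosome 8, 94179082 to 94180327, mm10). In the Controls it stood at 231, 42.1 and 445 CPM, against 3172, 4175 and 1600 CPM in the AML libraries, and the groups did not overlap. The means were 239 ± 201 and 2983 ± 1298 CPM (SD, n = 3 each). The change fitted by edgeR was 14.2-fold (log2 change 3.83, SE 0.61; quasi-likelihood test with Benjamini-Hochberg adjustment, adjusted p = 0.0120). Of 425 genes with enough UMIs for the test, Mt1 was the 1 that passed (0.235%). At an unadjusted p below 0.05 there were 46 (10.8%), and in 70 (16.5%) no AML value overlapped with a Control value. In bulk sums of this kind, more UMIs from a few cells and a rise in every cell cannot be told apart, so Mt1 was counted by barcode. In blood and leukaemia barcodes of the same libraries Mt1 stood at 175, 187 and 125 CPM in the Controls and 517, 1289 and 882 CPM in the AML libraries, below the level in the Aspn-positive barcodes of each AML library. In AML 1 this order rested on 1 Aspn-positive barcode. With it left out, the Aspn-positive level there was 358 CPM, under the 517 CPM of the blood and leukaemia barcodes.

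Single barcodes held much of the Mt1. It was found in 5 of 15 Control barcodes, with 9 UMIs in all, and in 45 of 70 AML barcodes, with 489 UMIs. In AML 1, 1 barcode held 119 of 133 UMIs (89.5%), in AML 2, 1 held 106 of 203 (52.2%) and in AML 3, 1 held 57 of 153 (37.3%). With the highest barcode of each of the 6 libraries left out, Mt1 stood at 0, 0 and 255 CPM in the Controls, against 358, 2393 and 1031 CPM in the AML libraries. Control 1 and 2 had held 1 Mt1 UMI each, so this leaving out set both to 0. In Control 1, 3 UMIs then equal 880 CPM, above the value of AML 1, so whether these 2 libraries differ cannot be read at this depth. The value of AML 1 rested on 14 UMIs and that of Control 3 on 3. This leaving out was chosen after the values were seen and has no test.

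**Figure D3:**
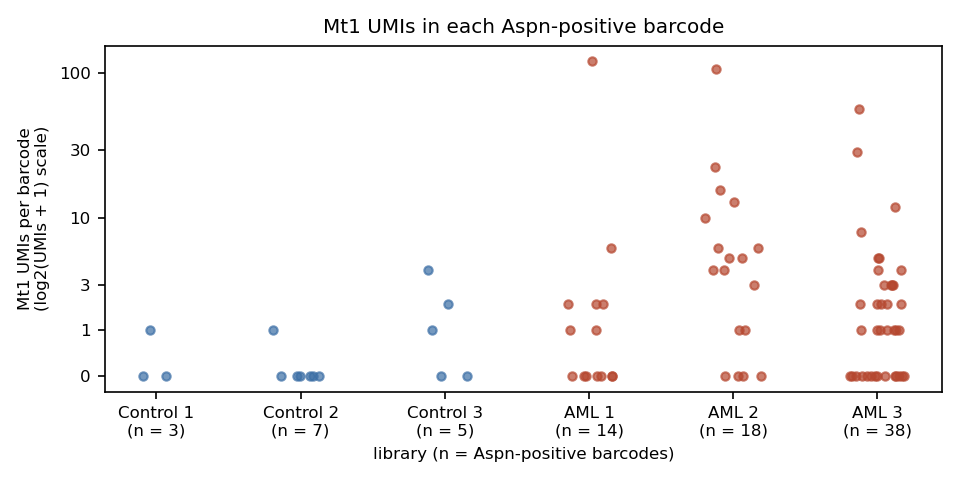
Each point is 1 Aspn-positive barcode, with its Mt1 UMIs on a log2(UMIs + 1) scale (y axis) by library (x axis, with the number of barcodes), Controls in blue and AML in red. No Control barcode exceeds 4 UMIs, and the highest barcodes of AML 1, 2 and 3 hold 119, 106 and 57.

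Mt1 kept its call when each library was left out in turn, with log2 changes of 2.94 to 5.25. Without Control 1 the log2 change was 3.77 (SE 0.65, edgeR adjusted p = 0.0116). It was lost when barcodes with any UMI of Myh11, Actg2 or Des were left out, which also removed Control 2 from the fit (log2 change 3.32, edgeR adjusted p = 0.486), and when only barcodes with Hhip were kept, which removed Control 1 (log2 change 3.66, edgeR adjusted p = 0.0741). Its neighbour Mt2, metallothionein 2, had 2 UMIs in the Controls, both in Control 2 (0, 84.3 and 0 CPM), and 73 in the AML libraries (95.4, 1049 and 188 CPM). Mt2 had too few for the test.

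Metallothionein genes are known for metal response elements near their start sites, bound by the zinc-sensing factor MTF1. The 250 bases before the RefSeq start of each gene (build GRCm38.p6, plus strand) are printed here because Mt1 is the gene that passed and Mt2 its neighbour. Capitals mark matches to the 2 strings searched on both strands, TGCACNC and TGCGCNC. The first window is chr8:94178839-94179088 and the second chr8:94172368-94172617.
Mt1: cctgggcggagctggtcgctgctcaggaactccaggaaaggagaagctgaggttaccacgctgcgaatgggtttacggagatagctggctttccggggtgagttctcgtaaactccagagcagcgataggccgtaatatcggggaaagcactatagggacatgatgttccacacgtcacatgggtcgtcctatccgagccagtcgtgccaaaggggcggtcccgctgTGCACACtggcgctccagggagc
Mt2: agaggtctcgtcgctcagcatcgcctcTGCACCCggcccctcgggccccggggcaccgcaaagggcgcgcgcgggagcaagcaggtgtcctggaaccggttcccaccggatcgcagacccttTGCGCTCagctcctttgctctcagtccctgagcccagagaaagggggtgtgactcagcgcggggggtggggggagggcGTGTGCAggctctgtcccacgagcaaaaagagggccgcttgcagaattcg
The window of Mt1 held 1 match, 23 to 17 bases before its start, and that of Mt2 held 3, which did not overlap each other. Of 27025 promoter windows of the same length, 5749 (21.3%) held at least 1 match and 345 (1.28%) at least 3. The GENCODE M21 transcript of Mt1 that starts first begins at 94179082, inside the end of its window, and 2 others begin at 94179211 and 94179241. Those of Mt2 begin at 94172664 and 94172860, downstream of its window. The bases directly before the downstream starts of both genes lie outside the windows and were not searched, so the counts of matches do not cover them. A match is a description of the letters and no measure of binding.

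In smooth muscle, too, Mt1 was higher in each AML library than in any Control. There Mt1 stood at 641, 1573 and 1119 CPM in the Controls and 1893, 3945 and 2880 CPM in the AML libraries. The AML-minus-Control log2 change of Mt1 was larger in Aspn-positive barcodes by 2.66 (SE 0.50; edgeR interaction with the library as a block, adjusted p = 0.000105). The AML levels of both classes overlapped, and the Control levels did not. This difference did not pass without Control 1 or without Control 2 (edgeR adjusted p = 0.617 and 0.461). Against Pdgfra-positive alveolar fibroblasts the difference was 3.13 (SE 0.78) and did not pass (edgeR adjusted p = 0.125). It passed edgeR when Control 3, AML 2 or AML 3 was left out (adjusted p = 0.00469, 0.00490 and 0.0480, in that order) and when genes of low count were kept (adjusted p = 0.0374). It did not pass when Control 1 was left out (edgeR adjusted p = 0.824). In those fibroblasts Mt1 stood at 861, 1438 and 772 CPM in the Controls and at 455, 6375 and 1326 CPM in the AML libraries, and in adventitial fibroblasts at 1602, 1294 and 1433 against 804, 4421 and 2341 CPM. AML 2 was the highest for Mt1 in all 4 classes.

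The 9 genes next in order by p, among those with groups apart and at least 50 CPM, did not pass, and their levels are given as values. Where Control 1 had 0 UMIs, as for Gadd45g and Lum, a gene lower in AML could not have groups apart. Fmo2, a flavin monooxygenase abundant in lung (chromosome 1, 162874317 to 162898726, mm10), stood at 231, 2738 and 2795 CPM in the Controls and 6989, 8474 and 10812 CPM in the AML libraries (log2 change 1.97, SE 0.36, edgeR adjusted p = 0.0576). It was found in 69 of 70 AML barcodes. Gpx3, a secreted glutathione peroxidase, stood at 461, 843 and 1016 against 2218, 2551 and 1757 CPM (log2 change 1.37, edgeR adjusted p = 0.0753). Fth1, the ferritin heavy chain that stores iron, stood at 2536, 4297 and 4700 against 6011, 9153 and 7110 CPM (log2 change 0.90, adjusted p likewise 0.0753 by edgeR).

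Pcsk5, a protease that activates secreted precursors and also 1 of the leading genes above, stood at 231, 84.3 and 254 CPM in the Controls and 668, 1275 and 742 CPM in the AML libraries (log2 change 2.46, edgeR adjusted p = 0.0753). Fos, the immediate early transcription factor, stood at 231, 337 and 1143 against 2838, 1172 and 1987 CPM (log2 change 1.71, edgeR adjusted p = 0.139). Bnip3, a mitochondrial protein induced by low oxygen, stood at 0, 126 and 0 against 477, 494 and 376 CPM, and Rbm3, an RNA-binding protein induced by cold, at 0, 253 and 63.5 against 477, 638 and 774 CPM (edgeR adjusted p = 0.139 and 0.149). Cst3, the protease inhibitor cystatin C, stood at 1614, 2612 and 1778 against 3697, 5060 and 2729 CPM, and Srsf5, a splicing factor, at 0, 84.3 and 381 against 716, 596 and 554 CPM (edgeR adjusted p = 0.225 for both). Rbm3 was also high in the blood and leukaemia barcodes of the AML libraries, at 952, 1761 and 1401 CPM. For each of these genes the 3 AML values lay above the 3 Control values, and the rule for naming them required groups that do not overlap. Without Control 1, Fmo2 passed (below), and the log2 changes were 1.20 for Gpx3, 0.70 for Fth1, 2.48 for Pcsk5 and 1.49 for Fos (edgeR adjusted p = 0.129, 0.248, 0.0851 and 0.202). Those of Bnip3, Rbm3, Cst3 and Srsf5 were then 2.48, 1.84, 0.75 and 1.52 (edgeR adjusted p = 0.138, 0.163, 0.405 and 0.267). Without Control 3, Fos passed (edgeR adjusted p = 0.00785).

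Galnt15, an enzyme that starts O-linked glycans, gave 0 UMIs in the 15 Control barcodes and 72 in the AML barcodes (262, 679 and 293 CPM). With the barcodes of each group pooled, against 3 UMIs over the Control group, this is at least 5.65-fold higher. By library the bound does not hold, since 3 UMIs in Control 1 equal 692 CPM, above each AML value. The gene was found in 42 of 70 AML barcodes. With the filter on low counts Galnt15 was not tested in these barcodes, and without the filter it passed edgeR.

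**Figure D4:**
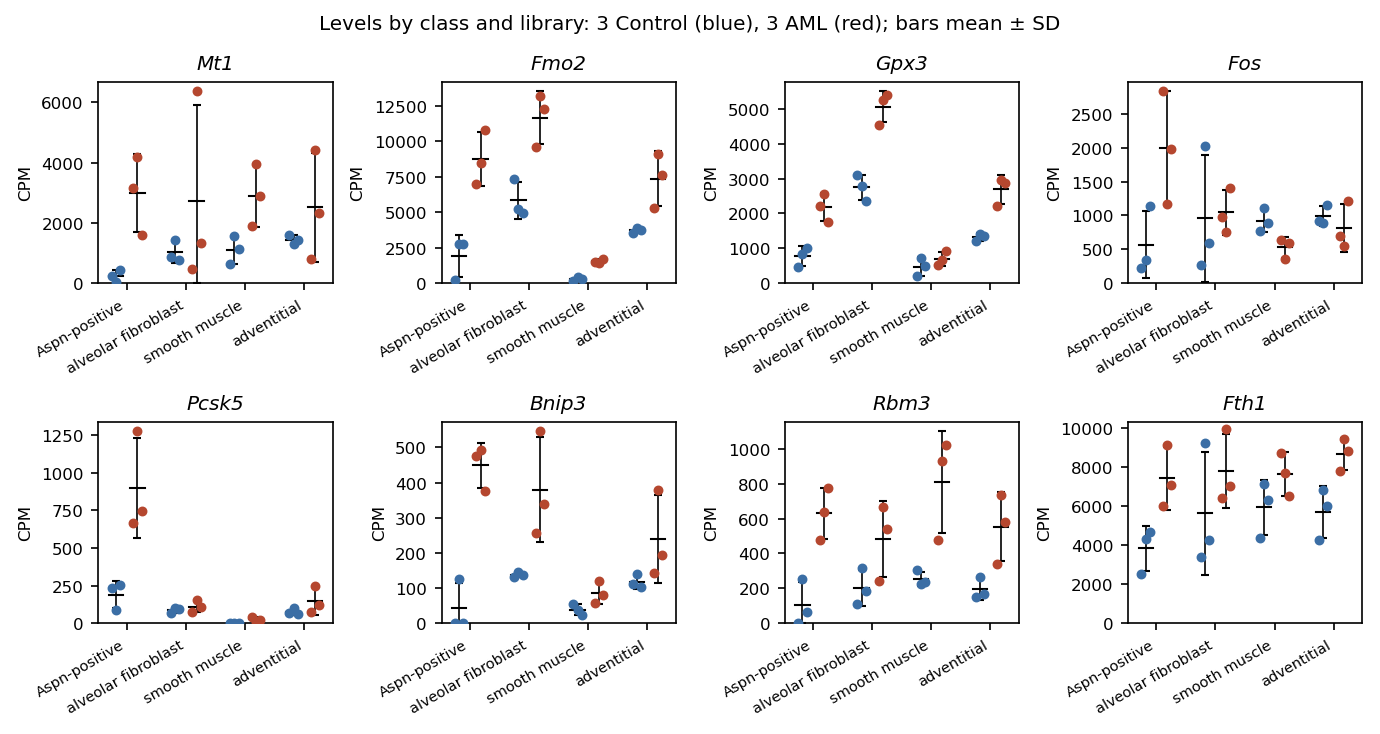
Levels in CPM (y axis, linear) of Mt1 and 7 genes next in order in Aspn-positive barcodes, Pdgfra-positive alveolar fibroblasts, smooth muscle and adventitial fibroblasts (x axis), with 1 point per library, Controls in blue and AML in red, a line at the mean and bars of 1 SD cut at 0. Fmo2 in AML libraries lies above the Controls in all 4 classes.

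Fmo2 was not particular to the Aspn-positive barcodes. It stood at 4952 to 7354 CPM in the Controls and 9601 to 13206 CPM in the AML libraries of Pdgfra-positive alveolar fibroblasts, at 160 to 466 against 1407 to 1730 CPM in smooth muscle, and at 3572 to 3915 against 5316 to 9139 CPM in adventitial fibroblasts. The groups lay apart in each class.

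The genes that passed differed under 2 stricter choices. Without Control 1, 3 genes passed edgeR (of 735): Mt1, Fmo2 (log2 change 1.64, SE 0.26, adjusted p = 0.00517) and Gadd45g, a stress-induced regulator of growth arrest, which was lower (log2 change -2.54, SE 0.38). Gadd45g stood at 0, 1306 and 1334 CPM in the Controls and 262, 288 and 167 CPM in the AML libraries, and the 0 is that of Control 1 with its floor of 692 CPM. When only the 74 barcodes with Hhip were kept, Control 1 was left with 1 barcode and out of the fit, and 7 of 528 genes passed. Fmo2 and Dcn, the proteoglycan decorin, were higher (log2 changes 1.36 and 1.69, edgeR adjusted p = 0.0104 and 0.0183). Gadd45g, Lum, Rgs2, Tsc22d3 and Gm42418 were lower.

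Of the genes that were lower in barcodes with Hhip, Lum, the proteoglycan lumican, stood at 1122 and 1524 CPM in the 2 Controls left, against 382, 86.4 and 328 CPM in AML (log2 change -2.28, edgeR adjusted p = 0.0249). Tsc22d3, a target of glucocorticoids, stood at 3253 and 3811 against 1479, 1440 and 1882 CPM (log2 change -1.18, edgeR adjusted p = 0.0183). Rgs2 stood at 3870 and 4954 against 2695, 1555 and 1849 CPM (log2 change -1.16, edgeR adjusted p = 0.0371). In all 3 genes the 2 Control values lay above the 3 AML values. These results rest on 10 Control barcodes in 2 libraries, and the choice of barcodes with Hhip was made after the data were seen.

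**Figure D5:**
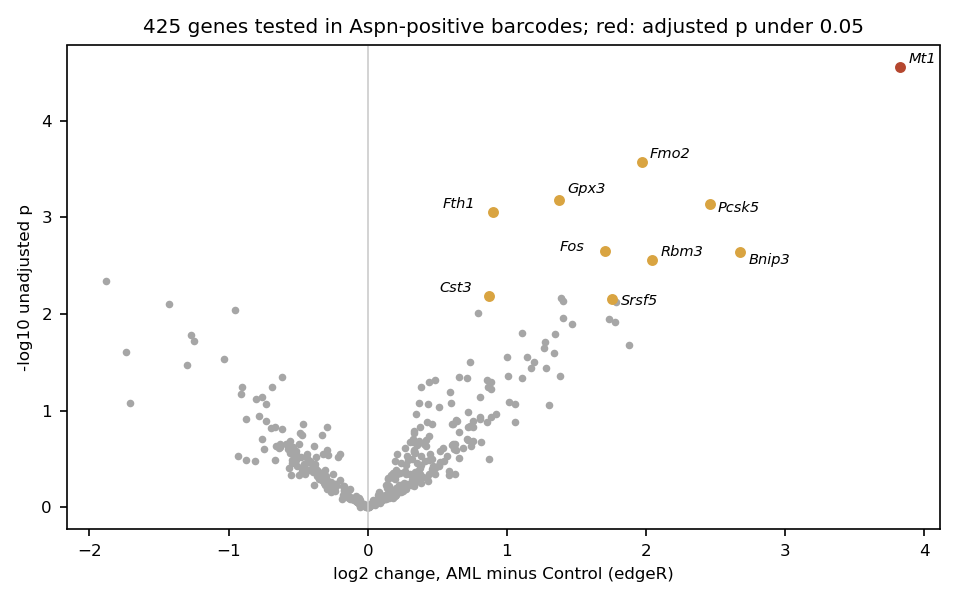
Each point is 1 of 425 genes tested in Aspn-positive barcodes, with its log2 change, AML minus Control, on the x axis and -log10 of the unadjusted edgeR p on the y axis. Mt1, in red at 3.83, is the gene with an adjusted p below 0.05. In amber are the 9 genes next in order by p among those with groups apart, and they lie to the right of 0.

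Pathway lists held few genes with enough UMIs, and Mt1 was the only listed gene that passed. Over the 30 lists, 74 genes were tested, beside a median log2 change of 0.09 for all 425 genes, of which 252 lay above 0. Of 10 immediate early genes that tissue digestion is known to induce, 0 passed (edgeR, 2 at an unadjusted p below 0.05, median 0.23), with Fos at 1.71. Of 6 contractile genes (Mylk, Tpm1, Cald1, Tagln, Mustn1 and Myl6), 0 passed (0 at an unadjusted p below 0.05, median 0.13). Of 6 genes of small proteoglycans and matrix, among them Lum, Dcn, Ogn and Bgn, 0 passed (3 at an unadjusted p below 0.05, median -0.26). Of 6 genes on the glucocorticoid and metallothionein list, Mt1 passed and the median was -0.02. Of 5 genes of the TGF-beta pathway, 0 passed (1 at an unadjusted p below 0.05, median 0.52), and of 5 of the unfolded protein response, 0 passed (1 at an unadjusted p below 0.05, median -0.57). DESeq2 called Mt1 and Fmo2 in these barcodes, and Fmo2 is on none of the lists. Without Control 1 more genes were tested, and the median of all 735 was -0.02. The medians were then 0.10 for the 10 immediate early genes, 0.40 for 9 contractile genes, -0.58 for 9 of small proteoglycans and matrix and -0.04 for 10 of the glucocorticoid and metallothionein list. They were 0.08 for 7 of the TGF-beta pathway and -1.01 for 8 of the unfolded protein response, and Mt1 was again the only listed gene that passed edgeR.

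Summed over a list, the UMIs of 7 of the 30 lists lay apart between the groups, as 16.5% of single genes did. None of these sums has a test. Cytosolic heat shock chaperones summed to 5995, 5308 and 6478 CPM in the Controls and 4818, 4258 and 4130 CPM in the AML libraries. The cold-inducible pair Cirbp and Rbm3 summed to 0, 506 and 191 against 668, 1028 and 983 CPM. Genes of the insulin-like growth factor axis, led by Igfbp3, summed to 2075, 3623 and 3366 against 3697, 4587 and 5113 CPM, and targets of p53 to 1845, 1643 and 2604 against 2791, 3353 and 2792 CPM. Class I antigen presentation summed to 3228, 2275 and 2413 against 2004, 1646 and 2133 CPM. PDGF ligands and receptors summed to 231, 169 and 254 against 71.6, 144 and 94.1 CPM, and proliferation genes to 461, 421 and 381 against 525, 617 and 502 CPM, both from few UMIs. Type 1 epithelial markers also lay apart, at 1614, 463 and 254 CPM in the Controls and 143, 165 and 52.3 CPM in the AML libraries, as did erythroid and platelet markers, at 461, 126 and 191 against 0, 20.6 and 0 CPM. Their part in these results was not tested.

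Over all 109 members no gene passed the test. Of 1237 genes, 0 passed edgeR (0%), 53 had an unadjusted p below 0.05 (4.28%), and in 136 (11%) the groups lay apart. The median log2 change was 0.00. Mt1 had the lowest p there as well (log2 change 3.77, SE 0.70, edgeR adjusted p = 0.538) and was the only gene that DESeq2 called. Among the named genes Galnt15 and Pcsk5 came next, with log2 changes of 3.74 and 2.38. Lower values were those of Emp2 (-1.86) and Col3a1, a chain of collagen III (-1.72), beside a higher Igfbp5 (2.07), and none passed. In AML 1, Igfbp5 gave 55 to 235 UMIs in each of the 6 barcodes with mesothelial markers. No Aspn-positive barcode of AML 1 held more than 10. Emp2 is also on the list of alveolar type 1 markers. The part of the members without Aspn in these values was not tested. Without Control 1, 0 of 2290 genes passed edgeR (116 at an unadjusted p below 0.05), with Mt1 at 4.31 (edgeR adjusted p = 0.404). The barcodes with mesothelial markers supplied 82.5% of the members' UMIs in Control 1, 0% in Control 2, 38.2% in Control 3, and 60.7, 54.5 and 12.3% in AML 1, 2 and 3. These values make a sum over all members a sum over a changing mixture.

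Compared with smooth muscle, the other contractile cell of the lung, the Aspn-positive barcodes differed in their response in 11 of 1672 genes (0.658%; 5 more positive, 0.299%, and 6 more negative, 0.359%; edgeR interaction). Fos had the lowest p among genes that both classes held in all libraries. It stood at 231, 337 and 1143 CPM in the Controls and 2838, 1172 and 1987 CPM in the AML libraries of the Aspn-positive barcodes, and 765, 1107 and 895 against 642, 356 and 594 CPM in smooth muscle. The log2 changes differed by 2.68 (SE 0.48, edgeR adjusted p = 2.06e-05), and the call held without each library in turn. Ogn, the small proteoglycan osteoglycin, differed by 2.79 (edgeR adjusted p = 0.0104, and 0.395 without Control 3 or 0.385 without AML 3), at 461, 295 and 63.5 against 525, 535 and 1150 CPM in the Aspn-positive barcodes. Gadd45g and Tmsb4x, the actin-binding thymosin beta 4, differed by -2.15 and -1.21 (edgeR adjusted p = 0.0268 for both). With each of the 6 libraries left out in turn, Gadd45g passed only without Control 1 and Tmsb4x only without Control 2, and otherwise the edgeR adjusted p reached up to 0.570 and 0.646. The count was 4 without Control 1, 7 without Control 2, 6 without AML 2 and 4 without AML 3, and with DESeq2 it was 0 (72 at an unadjusted p below 0.05).

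The rest of the 11 rested on few barcodes or on a group without UMIs. Each bound given here pools the barcodes of a group, so it does not hold for every library. Spp1, the secreted phosphoprotein osteopontin, had 12 UMIs in the Aspn-positive barcodes, all in 1 of the Control 2 barcodes that lacked Hhip, and 0 in AML, at least 17.0-fold lower. In smooth muscle Spp1 had 0 UMIs in the Controls and 237 in AML, at least 31.7-fold higher. The 237 lay in 6 of 134 barcodes, with 188 in 5 barcodes of AML 2, 49 in 1 of AML 3 and 0 in AML 1. Hhip had 0 UMIs in Control smooth muscle and 84 in AML, at least 11.2-fold higher, 73 of them in AML 1. Pdzd2, a marker of pericytes, had 12 of its 14 Control UMIs and 6 of its 8 AML UMIs in 1 barcode each. Zfp36l2, an RNA-binding protein that speeds decay of messengers, had 0 UMIs in the Control Aspn-positive barcodes and 36 in AML (at least 2.82-fold higher), and Galnt15 was as given above. Phldb2, a protein of the cell cortex, had 6 of its 9 Control UMIs in Control 1. With a library left out, Spp1 was lost only without Control 2 and Hhip only without Control 1, Pdzd2 passed in 3 of 6 fits, and Zfp36l2, Galnt15 and Phldb2 in 1 each (edgeR).

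Against alveolar fibroblasts no difference of response passed. Of 944 genes in the comparison with the Pdgfra-positive class, 0 passed the edgeR interaction (0%; 52 at an unadjusted p below 0.05). Of 2652 genes in the comparison of all members with all alveolar fibroblasts, 0 passed (0%; 103 at an unadjusted p below 0.05). DESeq2 gave 0 in both (42 and 70 at an unadjusted p below 0.05), as did edgeR without Control 1 (78 and 198). Beside Mt1, the lowest p values were those of Sept4, a septin (difference -3.50), Cdkn1a, the cell cycle inhibitor p21 (-2.97), and Ogn (2.34), each with an edgeR adjusted p of 0.129. A p that misses the threshold does not show that the classes respond alike.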

How the data were processed

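Single-cell RNA sequencing libraries (10x Chromium 3' v3.1) of mouse lung niche cells were analysed, 3 Control and 3 AML. The deposited values are raw UMI counts per gene and barcode over 32285 features on mm10, made by the authors with Cell Ranger, version 6.0.1 per the file headers and 7.0.0 per the submitters' processing notes. Nothing was done to them before the sums below.

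Members and comparison classes were gated on raw UMIs. The members and the gene lists were chosen with earlier results of these data known. Cells are not replicates, so the UMIs of a class were added up within each library, and AML was tested against Control with edgeR 4.0.16 (robust quasi-likelihood, TMM, filterByExpr; R 4.3.3), Benjamini-Hochberg adjusted over all tested genes at a threshold of 0.05. Differences between classes were interactions with the library as a block. The genes of the rule were fitted but not called. CPM is UMIs per 1000000 UMIs of the summed barcodes, and a level of 0 was bounded by 3 counts, which covers counting error only. A minimum of 10 members per library had been planned, but no Control library reached it, so 3 were required, a choice made after the counts were seen. So were Aspn-positive barcodes as a result of their own, the comparisons of these barcodes with Pdgfra-positive alveolar fibroblasts and smooth muscle, and the choices on Hhip and pericyte markers. The first comparison class, all alveolar fibroblasts, carried surfactant transcripts, which led to the Pdgfra-positive class.

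Named genes followed a fixed rule: up to 12 in each direction past the threshold, or, with under 5 passing, the 10 of lowest p. In the fits of AML against Control, both kinds also needed groups apart and at least 50 CPM. In all fits, mitochondrial, ribosomal protein, Gm and Rik names were left out. So were genes whose CPM in blood and leukaemia barcodes of the AML libraries was over 5 times that in the tested barcodes. Other genes were named for their role or after their values were seen. Two-group shares were tested by exact permutation over libraries. Doublets were scored with Scrublet (scanpy 1.11.5). The top 895 barcodes, 0.8% per 1000, were left out in an alternative, and held 1 member. Promoters came from RefSeq (GRCm38.p6) and gene positions from GENCODE M21. The scripts were tested on simulated data. Other alternatives were DESeq2 1.42.0, its size factors, no low-count filter, equal barcodes per library, stricter gates, a replicate block and leaving out each library. The labels name no batch.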

Additional observations from a re-analysis of the deposited data

Results flagged for a closer look

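All results here come from the test of the difference in AML response between Aspn-positive barcodes and smooth muscle, given as the difference of the log2 changes, and each passed edgeR's interaction test. More positive in the Aspn-positive barcodes were Zfp36l2 (8.06), Galnt15 (7.51), Ogn (2.79), Fos (2.68) and Mt1 (2.66). More negative were Spp1 (-15.25), Hhip (-7.12), Pdzd2 (-4.15), Phldb2 (-3.61), Gadd45g (-2.15) and Tmsb4x (-1.21). For Zfp36l2, Galnt15 and Hhip 1 group of 1 class had 0 UMIs, and for Spp1 1 group of each class had 0. For these 4 genes the fitted size therefore depends on the prior count and is no estimate of a fold. With barcodes of 5 or more pericyte marker UMIs left out, 5 genes passed (Arhgef12, Fos, Gadd45g, Mt1 and Ogn). With only Hhip-positive barcodes, which also took Control 1 out of the fit, 5 passed (Arhgef12, Fos, Gadd45g, Id3 and Ogn).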

How the results depend on the processing

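Counts of genes past edgeR's threshold moved with the choice of barcodes and of low-count filter. For all members (0 passed) DESeq2 gave 1, and edgeR gave 25 without the low-count filter, 8 with at least 3 UMIs of the rule genes and 3 with at least 1 Hhip UMI. For Aspn-positive barcodes (1 passed) it was 2 with DESeq2, 8 without the filter, 0 with equal barcodes per library (121 genes tested), 5 with at least 3 rule UMIs, 0 without barcodes holding Myh11, Actg2 or Des, 3 without barcodes holding blood or surfactant RNA, 7 with Hhip and, leaving out each library in turn, 1 to 3. Mt1 passed in 15 of the 17 alternatives in which it was tested, with log2 changes of 2.94 to 5.25 over all 17. In the difference from all alveolar fibroblasts (0 passed) the count was 10 without the filter, 14 with at least 3 rule UMIs, 1 without blood or surfactant RNA, 1 with Hhip and 0 to 1 leaving out libraries. In the difference from Pdgfra-positive alveolar fibroblasts (0 passed) it was 3 without the filter, 1 with at least 3 rule UMIs and 0 to 7 leaving out libraries. In the difference from smooth muscle (11 passed) it was 0 with DESeq2 and with equal barcodes, 7 without the filter, 3 with at least 3 rule UMIs, 3 without Myh11, Actg2 or Des, 3 without blood or surfactant RNA, 5 without pericyte markers, 5 with Hhip and 4 to 12 leaving out libraries. With at least 3 rule UMIs and with Hhip, the sign turned for Pdzd2 against Pdgfra-positive fibroblasts (6.12 and 3.92) and against smooth muscle (3.88 and 1.68) and for Rapgef5 against the former (0.50 and 0.55), as it did for Fosb there without Myh11, Actg2 or Des (-1.08). The difference in share thinned to 2000 UMIs was -1.33 percentage points. Some of these choices also took a library out of the fits, by the minimum of 3 barcodes. Control 1 was out with at least 3 rule UMIs (1 member, 0 Aspn-positive), without blood or surfactant RNA (2 and 0) and with Hhip (2 and 1). Control 2 was out without Myh11, Actg2 or Des (1 and 1). In Aspn-positive barcodes, the 3 genes without blood or surfactant RNA were the 3 that passed without Control 1. The effects of the barcodes chosen and of the lost library were not tested apart. Control libraries held 15 Aspn-positive barcodes and 43818 UMIs in all, which limits every comparison.

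With the replicate number as a block, 0 genes passed over all members and 10 in Aspn-positive barcodes (AY036118, Cst3, Fmo2, Fos, Fth1, Gm42418, Gpx3, Lum, Mt1 and Pcsk5). The numbers are only shared: in Aspn-positive barcodes the deviations of same-numbered libraries correlated at -0.06, -0.06 and 0.13 across genes, and the pairing has no other source.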
